A study of Mus musculus with 6 samples.

Results

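Aminoacyl-tRNA synthetases are the enzymes that join each amino acid to its transfer RNA, the step at which the genetic code is read into protein. The group described here is the cytosolic synthetases, their mitochondrial counterparts and the 3 scaffold proteins that hold several cytosolic enzymes in one complex. It was defined by gene name and not by any measured value, though with earlier results of these data known. It holds 39 genes out of the 52636 gene identifiers in the count tables. There are 20 genes for cytosolic enzymes, 16 for mitochondrial enzymes and 3 for partners (Aimp1, Aimp2 and Eef1e1), and all 39 had enough counts to be tested.

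RNA was sequenced from mouse E14 cells, an embryonic stem cell line, after 4 days of differentiation with retinoic acid at 5 µM (a unit that the labels write as µm). Before that they were kept in serum with LIF, a MEK inhibitor and a GSK inhibitor (2i), and retinoic acid was given in medium without LIF and 2i. The wild-type group has 3 libraries, and the knockout group has 3 from cells that lack an enhancer cluster, which the series title links to HoxB activation. Each set of 3 is described as biological replicates in the design text, which names the cells NPC (neural progenitor cells). The number of knockout clones was not given in the sources used here, so differences between the groups and differences between clones cannot be told apart.

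Cytosolic synthetases charge the transfer RNAs used by ribosomes in the cytoplasm. Mitochondria have their own ribosomes and transfer RNAs, and in mammals most of their synthetases come from a second set of nuclear genes, whose symbols end in 2. Glycyl- and lysyl-tRNA synthetase (Gars and Kars) are exceptions, since 1 gene serves both compartments, and the mitochondrion has no gene for a glutaminyl enzyme of its own on the list. Part of the cytosolic set assembles with the 3 scaffold proteins into the multisynthetase complex. Uncharged transfer RNA activates the kinase GCN2, which leads to translation of the transcription factor ATF4, and several cytosolic synthetase genes are known ATF4 targets.

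The libraries held 7780368 to 9472916 counts assigned to genes. Counts over ribosomal RNA loci made up 0.941% of knockout replicate 1 and 0.0649 to 0.108% of the other 5 libraries. Scatter between replicates of a group was measured as chi-square per degree of freedom. It was 6.03 and 7.24 for knockout replicate 1 against the other knockout libraries, and 1.90 to 2.41 for the remaining pairs. No value was computed without the ribosomal RNA locus genes and Lars2, which were far higher in that library. Whether its other genes were noisier therefore cannot be read from these values. Cell type markers also moved between the groups. The summed level of 12 endoderm markers was 2603 to 2639 counts per 1000000 (CPM) in wild type and 7727 to 7823 CPM in the knockout, with 9 higher and 1 lower. Most of that rise came from Lamb1 (875.1 and 2900 CPM), Lama1 (932.9 and 2811 CPM) and Cubn (222.4 and 1038 CPM). Sox17 was the lower gene, and Foxa2 and Ttr did not pass. The summed level of 10 neural progenitor markers was 484.0 to 506.9 and 159.6 to 168.8 CPM, with 2 higher and 4 lower of 8 tested. Most of that fall came from Nes (231 and 33.6 CPM), Cdh2 (142.9 and 49.6 CPM) and Sox2 (74.9 and 26.7 CPM), and the higher genes were Pax6 and Msi1. Of the 10, Fabp7 was at 0 in every library, Hes5 had at most 1 count, and Sox1 stood at 1.98 and 1.84 CPM. Pluripotency markers summed to 768.3 to 802.0 and 573.2 to 590.3 CPM, with 3 higher and 4 lower of 8. Markers of fibroblasts and mesenchyme summed to 1478 to 1507 and 370.9 to 382.4 CPM, with 1 higher and 5 lower of 7 tested. Vim, at 994.1 and 172.5 CPM, made up most of that fall. The 8 neuron markers summed to 145.3 to 155.6 and 77.3 to 78.7 CPM, with 1 higher and 3 lower of 5 tested. Tubb3, at 62.7 and 2.04 CPM, made up most of that fall. The part of these shifts in the synthetase results was not tested, and in bulk RNA fewer cells of a type and less RNA per cell cannot be told apart.

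Across the 39 genes, 9 were higher in the knockout, 17 were lower and 13 did not pass the test (edgeR, adjusted p under 0.05 over all tested genes). The background in the same comparison was 68.6% of all 15816 tested genes called, 34.5% higher and 34.0% lower, so a count of 26 of 39 is close to the background share. The same shares are the background for every subgroup and list given here. The changes were mostly small. The median absolute log2 fold change was 0.23, against 0.49 over all tested genes, and 4 of 39 reached an absolute log2 fold change of 1, which 21.1% of all tested genes did. Without knockout replicate 1 that number was 2 (Fars2 and Mars2), since Lars2 and Aimp2 then fell short of it. The 3 knockout values lay wholly above the wild-type values in 9 members and wholly below them in 15, against 35.5% and 35.4% of all tested genes, or 70.9% for both directions. Without knockout replicate 1, 8 members were higher and 13 lower.

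**Figure D1:**
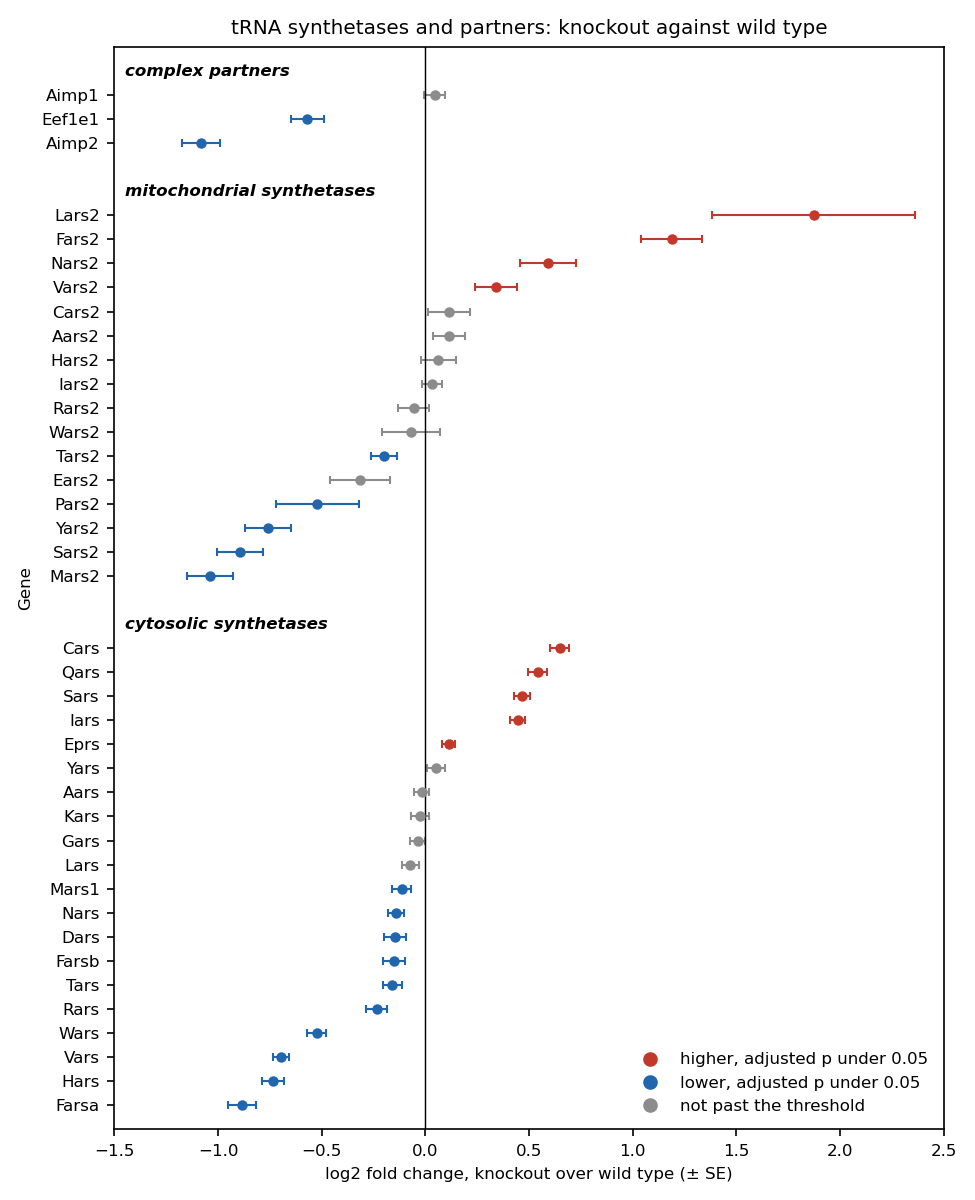
Log2 fold change of each of the 39 genes, knockout over wild type (x axis), by subgroup (y axis), with bars for 1 SE from edgeR on 3 libraries per group and colour for the call. Most cytosolic enzymes lie near 0, Farsa is the lowest of them at -0.88, and Lars2 has by far the widest bar.

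Summed over the subgroup, RNA for the cytosolic enzymes was nearly level between the groups. The sum of the 20 genes was 5362, 5412 and 5307 CPM in wild-type replicates 1 to 3 and 5292, 5310 and 5412 CPM in knockout replicates 1 to 3. The ranges of the 2 groups overlap almost fully. The 15 mitochondrial enzymes other than Lars2 summed to 516.7, 519.3 and 504.9 CPM in wild type and to 487.0, 489.3 and 488.2 CPM in the knockout, where every library lay below every wild-type library. The 3 partners went from 196.8, 189.5 and 189.3 CPM to 145.3, 146.9 and 148.2 CPM, again without overlap. These sums are shares of each library, so total RNA per cell is outside what they measure.

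Within the cytosolic set, 5 genes rose, 10 fell and 5 did not pass, beside 34.5% higher and 34.0% lower of all tested genes. The median log2 fold change of the set was -0.09, beside 0.01 for all tested genes. The largest rise was in Cars, the cysteinyl-tRNA synthetase (chromosome 7, 143557230 to 143600090, GRCm38), at 168.3, 173.7 and 154.9 CPM in wild type and 256.8, 256.2 and 265.9 CPM in the knockout. All 3 knockout libraries lay above the wild-type libraries, and the log2 fold change was 0.65 (SE 0.046, n = 3 per group, edgeR adjusted p = 2.55e-12). Qars, the glutaminyl enzyme and a member of the multisynthetase complex, stood at 148.8, 148.1 and 143.7 CPM and then at 201.0, 223.7 and 216.9 CPM. It rose by 0.54 on the log2 scale (SE 0.046), with no overlap between the groups.

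The seryl enzyme Sars also charges the transfer RNA that is later converted to carry selenocysteine. Its level was 278.7, 275.9 and 284.6 CPM in wild type and 382.8, 393.7 and 383.9 CPM in the knockout, a rise of 0.47 (SE 0.039). Iars, the isoleucyl enzyme, went from 365.2, 362.0 and 368.7 CPM to 490.7, 485.5 and 515.2 CPM, a rise of 0.44 (SE 0.037). In both genes the spread within a group was small beside the gap between the groups. Eprs, a single protein that charges both glutamate and proline, rose by 0.11 (SE 0.033), from 532.5 ± 9.06 to 575.3 ± 5.46 CPM (SD, n = 3).

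The cytosolic gene with the largest fall was Farsa, which encodes the catalytic alpha chain of phenylalanyl-tRNA synthetase (chromosome 8, 84856989 to 84869257). It stood at 110.9, 105.8 and 99.8 CPM in wild type, against 62.9, 50.2 and 58.6 CPM in the knockout, a fall of 0.88 on the log2 scale (SE 0.066, edgeR adjusted p = 7.54e-12). The beta chain of the same enzyme, Farsb, stood at 123.0, 137.3 and 124.8 CPM and then at 117.9, 107.7 and 121.3 CPM. Farsb fell by 0.15 (SE 0.053, edgeR adjusted p = 0.0143), and its 2 groups are separated by less than their own spread. This call was lost without wild-type replicate 2 (log2 fold change -0.10, edgeR adjusted p = 0.111), without knockout replicate 2 (-0.10, 0.119) and with upper-quartile scaling (-0.11, 0.0615). The log2 ratio of Farsa to Farsb was -0.28 ± 0.12 in wild type and -1.02 ± 0.10 in the knockout (SD, n = 3), a difference of -0.74 with the groups apart. An exact two-sided permutation test gave p = 0.1, the smallest that 3 libraries against 3 allow, or 0.138 after Benjamini-Hochberg adjustment over the 18 ratios computed, so no ratio could pass 0.05.

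Hars, the histidyl enzyme, fell by 0.74 (SE 0.053), from 110.6, 112.3 and 119.6 CPM to 65.1, 69.4 and 71.1 CPM. Its mitochondrial counterpart Hars2 lies head to head with it on chromosome 18 on the other strand, and their annotated exons overlap over 7.97% of the exon length of Hars and 4.56% of that of Hars2. Hars2 stood at 42.8, 51.4 and 43.2 CPM in wild type, against 46.0, 50.8 and 47.1 CPM in the knockout, with overlapping groups and a log2 fold change of 0.06 (SE 0.082). The difference between the groups in the log2 ratio of Hars to Hars2 was -0.81 (exact permutation p = 0.1, the smallest possible).

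Vars, the valyl enzyme, which binds the elongation factor complex eEF1, fell by 0.70 (SE 0.041, edgeR adjusted p = 4.69e-14), from 372.2, 372.1 and 358.7 CPM to 229.3, 231.4 and 220.2 CPM. Every knockout library lay below every wild-type library by far more than the spread of either group. The eEF1 subunits did not move with it in 1 direction: Eef1b2, at 0.41 (SE 0.032), and Eef1g, at 0.26 (SE 0.024), were higher, and Eef1d fell by 0.38 (SE 0.043). Eef1d and Eef1g lie outside the rule for naming genes and were chosen after their values were seen. Wars, the tryptophanyl enzyme, fell by 0.53 (SE 0.044), from 224.0 ± 5.50 to 155.7 ± 5.14 CPM (SD, n = 3).

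**Figure D2:**
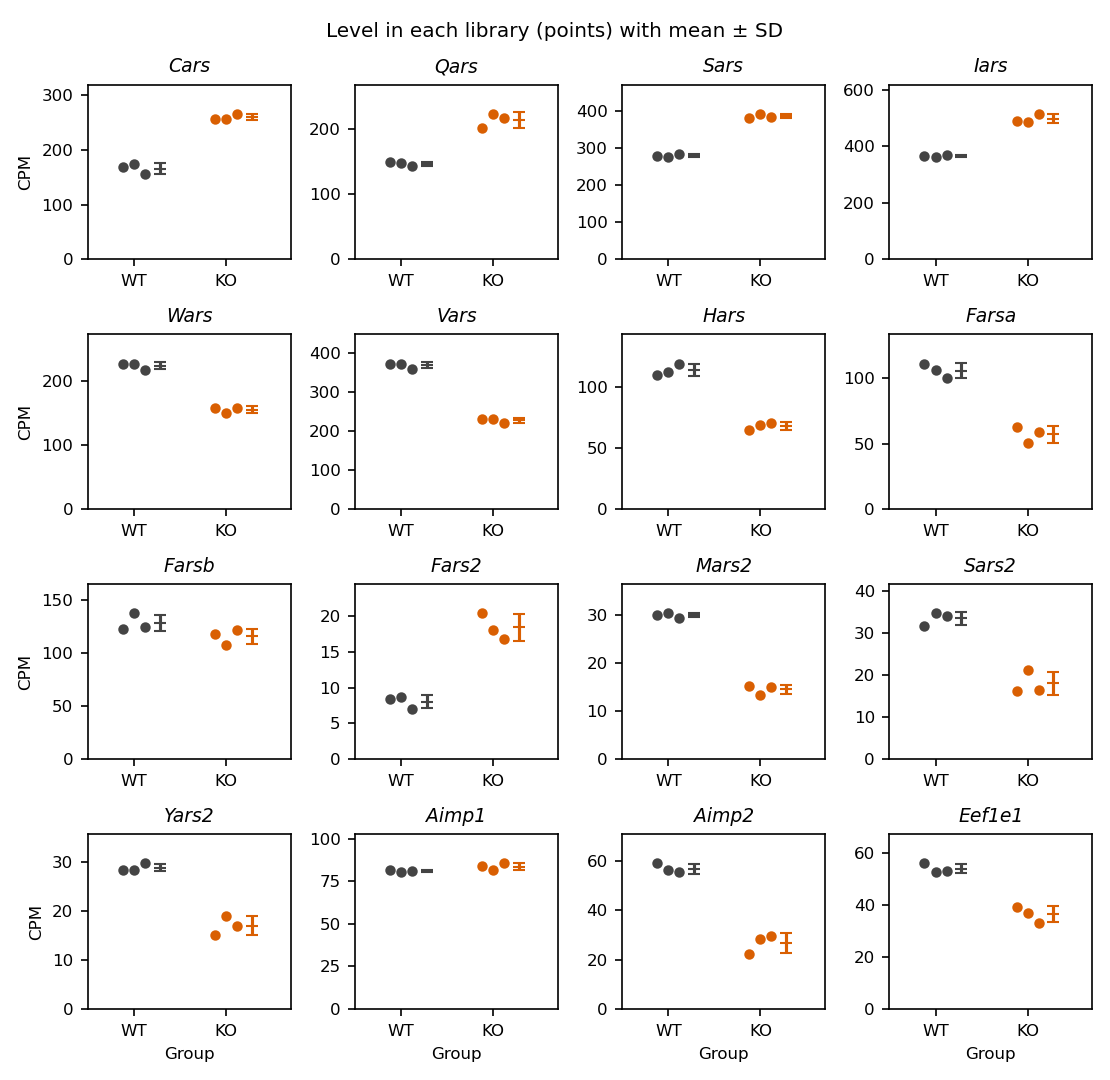
CPM in each library (y axis, from 0, a separate scale for each panel) for 16 of the genes, wild type (WT) and knockout (KO), with points for the 3 libraries and a bar for the mean ± SD. In Cars, Qars, Sars and Iars the knockout points lie above the wild-type points, in Wars, Vars, Hars and Farsa below them, and in Aimp1 the groups overlap.

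The other 6 cytosolic genes that fell did so by small amounts. These were Rars at -0.23 (SE 0.051), Tars at -0.16 (SE 0.047), Dars at -0.15 (SE 0.052), Nars at -0.14 (SE 0.038) and Mars1 at -0.11 (SE 0.046), besides Farsb, encoding the arginyl, threonyl, aspartyl, asparaginyl and methionyl enzymes. In Dars and Mars1 the groups overlapped, and the calls depended on single libraries and on scaling. Dars was at -0.12 without wild-type replicate 3 (edgeR adjusted p = 0.0729), at -0.11 without knockout replicate 1 (0.0887), at -0.13 without knockout replicate 2 (0.0633) and at -0.11 with upper-quartile scaling (0.0671). Mars1 was at -0.10 without wild-type replicate 1 (edgeR adjusted p = 0.105), at -0.12 without wild-type replicate 2 (0.0506), at -0.08 without knockout replicate 1 (0.124), at -0.11 without knockout replicate 3 (0.0514) and at -0.08 with upper-quartile scaling (0.134).

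The 5 cytosolic genes that did not pass include both genes that serve 2 compartments. Gars stood at 469.4, 472.0 and 471.6 CPM in wild type, against 447.9, 453.5 and 475.9 CPM in the knockout, and its log2 fold change was -0.04 (SE 0.036). Kars stood at 260.4, 254.7 and 247.0 CPM and then at 236.9, 251.2 and 259.4 CPM, with a log2 fold change of -0.03 (SE 0.044) whose sign turned with upper-quartile scaling and without knockout replicate 1 (0.01 in each). In both genes the groups overlap. A pseudogene of Kars (Kars-ps1) is annotated, and how its reads were assigned was not tested. Aars was at -0.02 (SE 0.035, and 0.02 with upper-quartile scaling), Lars at -0.07 (SE 0.041) and Yars at 0.05 (SE 0.044).

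The 8 enzymes of the multisynthetase complex went both ways. Iars, Qars and Eprs rose, Rars, Dars and Mars1 fell, Kars and Lars did not pass, and the median log2 fold change was -0.05. Their summed level was 2117 to 2145 CPM in wild type and 2244 to 2332 CPM in the knockout. Synthetases form 2 structural classes, which differ in the fold of the catalytic domain. Of 9 cytosolic class I genes, 3 rose and 4 fell (median -0.07), and of 10 class II genes, 1 rose and 6 fell (median -0.14). Over all tested genes 34.5% were higher and 34.0% lower, and the 2 classes were not tested against each other. Eprs, which joins a class I and a class II enzyme, was counted in neither.

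The scaffold proteins of that complex did not move alike. Aimp2, which encodes the central scaffold p38 (chromosome 5, 143902704 to 143909847), was at 58.9, 56.1 and 55.2 CPM in wild type, against 22.3, 28.3 and 29.5 CPM in the knockout. It was 2.12-fold lower, with a log2 fold change of -1.08 (SE 0.091, edgeR adjusted p = 7.29e-11), a fall within 1 SE of that of Mars2. Without knockout replicate 1 it was at -0.97 and Mars2 at -1.07. Eef1e1, which encodes the small partner p18, was at 56.1, 52.9 and 53.1 CPM and then at 39.3, 36.8 and 33.1 CPM, a fall of 0.57 (SE 0.080). Aimp1, which encodes p43, was at 81.8, 80.6 and 81.0 CPM and then at 83.7, 81.7 and 85.5 CPM, overlapping in range, with a log2 fold change of 0.04 (SE 0.052). The log2 ratio of Aimp2 to Aimp1 was -0.52 ± 0.04 in wild type and -1.66 ± 0.22 in the knockout (exact permutation p = 0.1, the smallest possible).

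Reads of Aimp2 are not fully its own. Of the exon length of Aimp2, 29.4% lies under exons of Eif2ak1, which runs the opposite way, and the counts were treated as not separating strands. Eif2ak1, a kinase of the initiation factor eIF2, was lower as well, at 81.6 ± 4.68 and 46.6 ± 1.31 CPM (log2 fold change -0.81, SE 0.066). Per kilobase of exon, Eif2ak1 stood at 14.4 CPM in wild type and 8.23 CPM in the knockout, and Aimp2 at 34.3 and 16.1 CPM. The Aimp2 difference may hold reads of Eif2ak1, and their part in its size was not tested. With Aimp2, Iars2 and Fars2 left out for such overlap of at least 10%, an alternative chosen after seeing the data, 8 of 36 members were higher and 16 lower, and of the other 2 partners 1 was lower.

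Beside 34.5% higher and 34.0% lower of all tested genes, 4 of the 16 mitochondrial enzymes were higher, 5 were lower and 7 did not pass. The median log2 fold change was -0.01, and its sign turned with upper-quartile scaling (0.02) and without wild-type replicate 2 (0.03). It also lay barely above 0 with wild-type replicate 1 or knockout replicate 3 left out. It was -0.11 without knockout replicate 1, and 3 genes were lower and 3 higher in that fit. Mars2, the mitochondrial methionyl enzyme (chromosome 1, 55237177 to 55248470), stood at 30.2, 30.4 and 29.6 CPM in wild type, against 15.3, 13.5 and 15.0 CPM in the knockout. It was 2.06-fold lower (log2 fold change -1.04, SE 0.11, edgeR adjusted p = 5.89e-09). The knockout libraries were all far below the wild-type libraries, which were nearly equal to each other.

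Sars2, the seryl enzyme, fell by 0.89 (SE 0.11), from 31.7, 34.6 and 34.0 CPM to 16.2, 21.2 and 16.5 CPM. Yars2, the tyrosyl enzyme, fell by 0.76 (SE 0.11), from 28.5, 28.5 and 29.8 CPM to 15.2, 19.0 and 17.1 CPM. In both, the groups stood apart by more than the spread of either. Pars2, at 8.23 ± 1.24 and 5.73 ± 1.15 CPM (SD, n = 3), and Tars2, at 70.1 ± 1.54 and 61.1 ± 3.68 CPM, were the other 2 that fell, and in Pars2 the groups overlapped.

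These last 2 calls depended on single libraries. Pars2, with 39 to 87 counts per library, was at -0.52 (SE 0.20, edgeR adjusted p = 0.0240), at -0.53 with DESeq2 (adjusted p = 0.0597), and between -0.50 and -0.41 without wild-type replicate 2 (edgeR adjusted p = 0.1005), wild-type replicate 3 (0.0589), knockout replicate 1 (0.0728) or knockout replicate 2 (0.107). Tars2 was at -0.20 (SE 0.063), and at -0.15 without knockout replicate 1 (edgeR adjusted p = 0.0638). Ears2, the glutamyl enzyme, did not pass at -0.32 (SE 0.14, edgeR adjusted p = 0.0543), but did without wild-type replicate 2 (-0.41, 0.0267), without knockout replicate 3 (-0.47, 0.00926) and with the replicate number as a block (-0.33, 0.0332).

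Fars2, the mitochondrial phenylalanyl enzyme (chromosome 13, 36117412 to 36726280), showed the largest rise that did not rest on 1 library. It stood at 8.40, 8.72 and 6.99 CPM in wild type, against 20.4, 18.1 and 16.7 CPM in the knockout, 2.28-fold higher (log2 fold change 1.19, SE 0.15, edgeR adjusted p = 9.15e-08). All 3 knockout libraries lay well above the wild-type libraries, from 57 to 82 counts in wild type and 143 to 158 in the knockout. Opposite-strand exons of Lyrm4 and Nrn1 overlie 10.7% of its exons by length, and both were higher too, at log2 fold changes of 1.01 and 2.37, their part in the value of Fars2 being not tested.

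Nars2, the asparaginyl enzyme, rose by 0.59 (SE 0.14), from 17.1, 12.7 and 11.8 CPM to 21.6, 21.2 and 19.8 CPM. Vars2, the valyl enzyme, rose by 0.34 (SE 0.10), from 29.8, 30.4 and 24.8 CPM to 40.6, 32.7 and 34.8 CPM. The groups do not overlap in either gene, but in Vars2 they are separated by less than the spread of either group. In Nars2 they are separated by less than the wild-type SD of 2.88 CPM. Without wild-type replicate 3 the rise of Vars2 was 0.25 and did not pass (edgeR adjusted p = 0.0536). The 6 others besides Ears2 that did not pass were Aars2, Cars2, Hars2, Iars2, Rars2 and Wars2, with log2 fold changes of -0.07 to 0.11. Of the exon length of Iars2, 24.2% lies under exons of Rab3gap2 and 2010103J01Rik on the other strand. Rab3gap2 was higher, at a log2 fold change of 0.59 (SE 0.050), and its part in the value of Iars2 was not tested.

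The value of Lars2, the mitochondrial leucyl enzyme (chromosome 9, 123366927 to 123462666), came from 1 library. It stood at 111.8, 98.5 and 101.2 CPM in wild type, at 959.5 CPM in knockout replicate 1, and at 106.6 and 77.8 CPM in knockout replicates 2 and 3. Over all libraries its log2 fold change was 1.87 (SE 0.49, edgeR adjusted p = 0.00153), and without knockout replicate 1 it was -0.17 (SE 0.082, edgeR adjusted p = 0.0648). Genes over ribosomal RNA loci had the same high library. Gm42418 stood at 450.3, 394.6 and 495.3 CPM in wild type, against 5180, 433.2 and 302.1 CPM in the knockout, and Gm23935 and CT010467.1 were likewise highest in knockout replicate 1, at 1876 and 1537 CPM. No rise of Lars2 can be read from the other 2 knockout libraries.

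**Figure D3:**
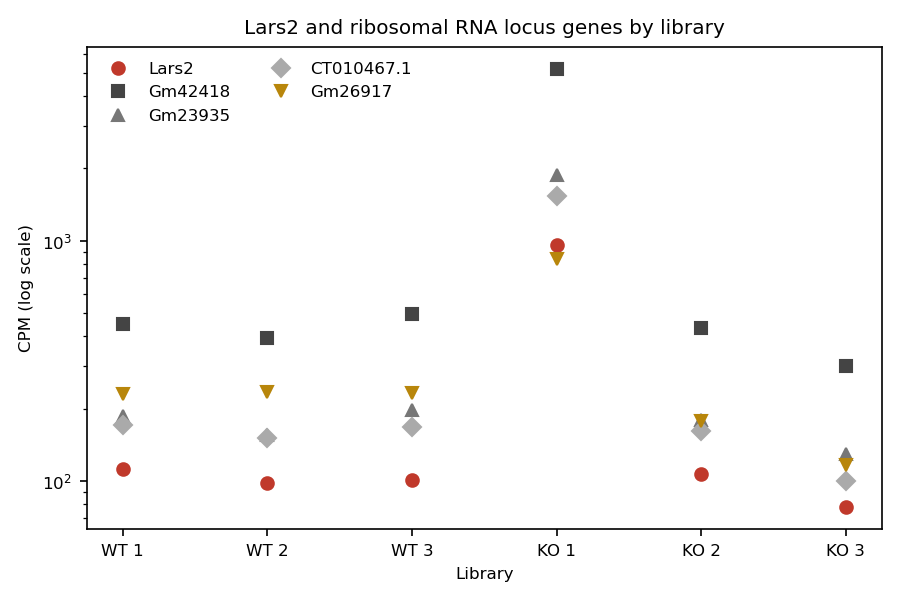
CPM of Lars2 and of 4 ribosomal RNA locus genes (y axis, log scale) in each of the 6 libraries (x axis), 1 point per gene and library. All 5 genes are highest in knockout replicate 1, where Lars2 reaches 959.5 CPM.

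Cytosolic and mitochondrial enzymes of the same amino acid were set side by side in 16 pairs, with Eprs used for both glutamate and proline. The cytosolic gene had the higher log2 fold change in 8 pairs and the mitochondrial gene in 8. The leucine pair stood on the mitochondrial side through knockout replicate 1, without which Lars was at -0.05 and Lars2 at -0.17. The split was still 8 and 8 in that fit, so another pair changed side the other way. Without wild-type replicate 1 the cytosolic gene was higher in 7 pairs and the mitochondrial gene in 9. In 11 pairs the log2 ratio of the 2 genes did not overlap between the groups, a share near the 70.9% of single tested genes whose levels did not overlap. By the mean of the log2 ratios, phenylalanine and serine showed the widest differences, in opposite senses. By the fitted fold changes leucine lay between them, which rests on the 1 high library of Lars2. For serine, Sars rose by 0.47 and Sars2 fell by 0.89, and the log2 ratio of Sars to Sars2 went from 3.07 ± 0.07 to 4.44 ± 0.19 (SD, n = 3). For phenylalanine, Farsa fell by 0.88 and Fars2 rose by 1.19, and the log2 ratio went from 3.72 ± 0.12 to 1.64 ± 0.17. For valine the fall of Vars stood beside the rise of Vars2, with ratios of 3.70 ± 0.13 and 2.66 ± 0.16. Threonine showed the least difference, with Tars and Tars2 at -0.16 and -0.20 and ratios of 1.63 ± 0.07 and 1.67 ± 0.17. The exact two-sided permutation p was 0.1, the smallest possible, for each pair whose groups stood apart.

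**Figure D4:**
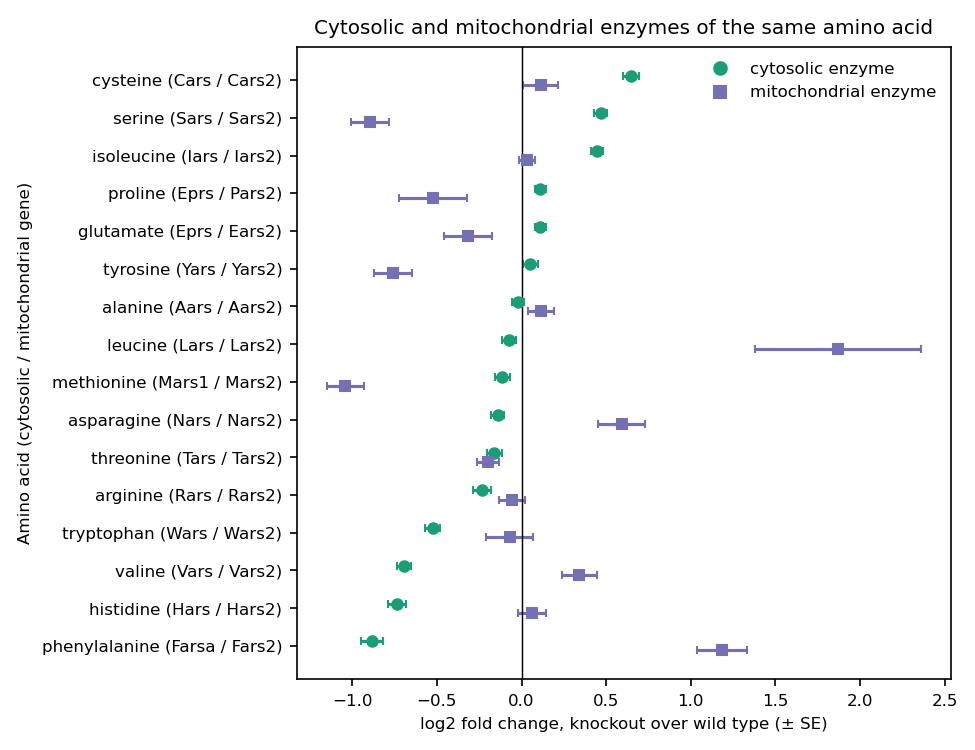
Log2 fold change, knockout over wild type (x axis, bars for 1 SE from edgeR, 3 libraries per group), of the cytosolic (circles) and mitochondrial (squares) enzyme for each amino acid (y axis, ordered by the cytosolic value). The 2 symbols lie far apart for serine and phenylalanine and together for threonine, and Lars2, high in knockout replicate 1 alone, has the widest bar.

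Levels of different genes were compared per kilobase of annotated exon. In wild type every cytosolic gene stood above every mitochondrial gene, with 22.3 (Qars) to 151.0 (Gars) CPM per kb against 1.40 (Fars2) to 17.6 (Rars2) CPM per kb. The medians were 53.0 and 6.89 CPM per kb. On this scale Gars (151.0 ± 0.455 CPM per kb, SD, n = 3), Nars (95.4 ± 0.547) and Iars (69.3 ± 0.636) came first. Their gaps were wider than the scatter between libraries, which does not cover the uncertainty of exon length. Behind Iars, Vars (65.6 ± 1.39), Wars (65.0 ± 1.60) and Mars1 (64.0 ± 2.05) did not differ beyond that scatter. In the knockout Iars (94.3 ± 3.01) stood above Nars (86.5 ± 2.87), Sars moved from rank 10 of 39 to rank 4 and Vars from rank 4 to rank 12. Farsa, at 12.6 ± 1.42 CPM per kb, then lay below the mitochondrial gene Rars2, at 16.9 ± 0.505. That order rests on exon length, since in CPM Farsa stood above Rars2 in the knockout, at 57.2 and 47.0. At the lower end, Pars2, Mars2 and Wars2 were all at 2.66 CPM per kb in wild type, and in the knockout Mars2 was the lowest of the 39 at 1.29 ± 0.0874 CPM per kb. Exon length counts every annotated isoform, so genes with long alternative exons, such as Eprs with 18102 bases, are placed too low on this scale. In CPM, wild-type Eprs (532.5) and Aars (509.8, over 9282 bases) stood above Gars (471.0, over 3119 bases). The lead of Gars therefore rests on exon length. The last rank of Mars2 rests on its 11294 bases of exon. In CPM it stood at 14.6 in the knockout, above Pars2 at 5.73.

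**Figure D5:**
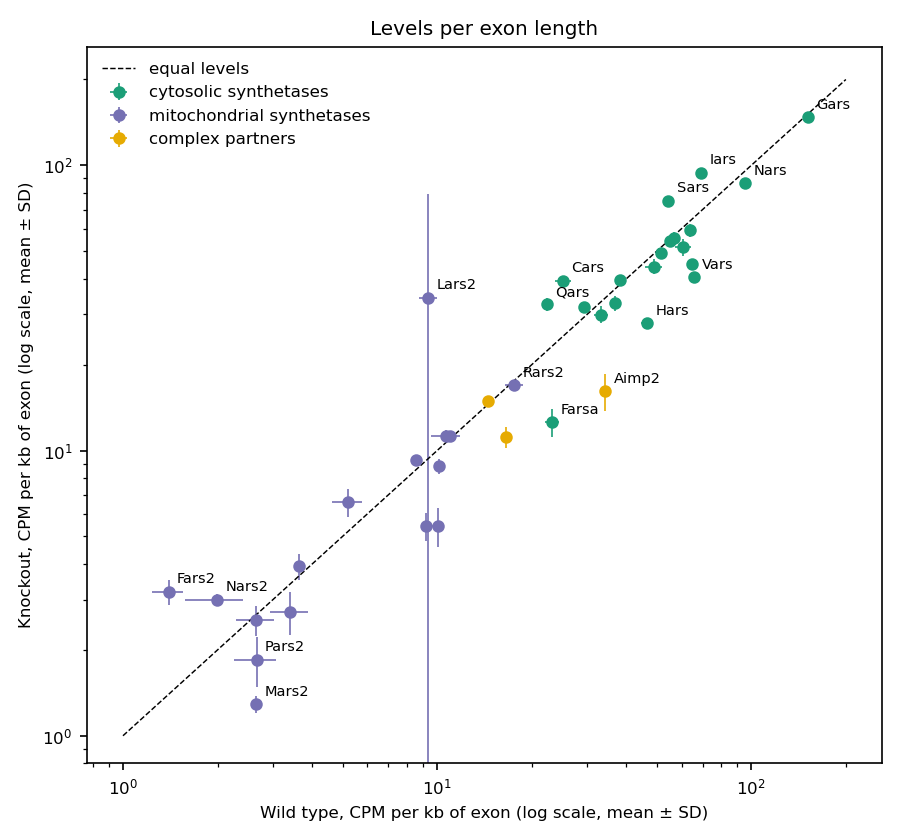
Level of each of the 39 genes in CPM per kb of exon, wild type (x axis) against knockout (y axis), both on log scales, with bars for the SD over 3 libraries and a dashed line at equal levels. Cytosolic genes lie at the upper right and mitochondrial genes at the lower left, and the lower bar of Lars2, whose SD exceeds its mean in the knockout, runs off the axis.

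Of the 12 cytosolic synthetase genes listed as ATF4 targets, 4 rose (Cars, Sars, Iars and Eprs), 4 fell (Wars, Tars, Nars and Mars1) and 4 did not pass (Aars, Gars, Lars and Yars), with a median log2 fold change of -0.03. The list of ATF4 and other genes of its amino acid response shifted downwards, with 18 lower, 5 higher and 4 not passing of 27, and a median of -0.48. Over all tested genes, 34.5% were higher and 34.0% lower. Atf4 itself fell by 0.50 (SE 0.038), from 395.3 to 279.9 CPM. Of the 6 genes of that list with the smallest adjusted p, Sesn2, a repressor of mTORC1, was at -0.99 (SE 0.047), Slc7a11, a cystine transporter, at -2.82 (SE 0.14), Chac1, which degrades glutathione, at -1.93 (SE 0.12) and Slc7a1, a transporter of cationic amino acids, at -0.67 (SE 0.043). The other 2 were higher: Ddit3, encoding the transcription factor CHOP, at 2.86 (SE 0.049), and Aldh18a1, an enzyme of proline synthesis, at 0.86 (SE 0.044). Ddit3 and Mars1 lie tail to tail, and their exons overlap over 1.99% of the exon length of Mars1.

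The ATF4 binding element, known as CARE, was searched as TGATGNAA on both strands in the 250 bases before each RefSeq start (GRCm38.p6), for which 30 of the 39 genes had a window. It was found in 2 of the 29 genes whose promoters are reported here, Gars and Tars, and in 3.45% of all windows of that table. Both matches are shown, beside log2 fold changes of -0.04 for Gars, which did not pass the test, and -0.16 for Tars, which fell. Each is printed on the strand of the gene, with the match in capitals. They lie at chr6:55037947-55038000 (Gars) and chr15:11399659-11399684 (Tars, minus strand), and the match ends 22 and 7 bases before the start. The stretch of Tars touches an annotated exon and is printed only around the match.
Gars: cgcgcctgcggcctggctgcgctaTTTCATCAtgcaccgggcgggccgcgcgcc
Tars: caggagtcccgTTGCATCAgctggtt
A match is a description of these letters and was not tested as a binding site.

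Myc, a transcription factor that binds E-box elements and is known to drive genes of protein synthesis, fell by 4.38 on the log2 scale (SE 0.13), from 68.0 to 3.26 CPM. The E-box CACGTG, which reads the same on both strands, was found in 2 of the same 29 genes, Farsb and Iars, and in 6.02% of all windows. It lies at chr1:78488907-78488960 (Farsb, minus strand) and chr13:49682037-49682090 (Iars), 33 and 63 bases before the start. Both matches are shown, beside genes called in opposite directions, with log2 fold changes of -0.15 for Farsb and 0.44 for Iars.
Farsb: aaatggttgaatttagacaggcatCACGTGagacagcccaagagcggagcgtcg
Iars: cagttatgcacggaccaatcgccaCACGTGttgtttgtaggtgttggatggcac
Of the 5 listed genes of the Myc network, 2 were lower (Myc and Mycn), 2 higher (Mnt and Mxd4) and Max did not pass. Mycn, the related factor of embryonic cells, stood at 69.0 and 58.7 CPM, a fall of 0.23 (SE 0.064).

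Genes that sense uncharged transfer RNA and amino acids were lower in 7 and higher in 3 of 11, with a median log2 fold change of -0.27. Eif2ak4, which encodes the kinase GCN2, rose by 0.74 (SE 0.067), from 43.5 to 72.8 CPM. Gcn1l1, encoding the partner that GCN2 needs for activation, fell by 0.27 (SE 0.038), and Impact, encoding an inhibitor of that interaction, fell by 0.57 (SE 0.042). Eif2s1, the alpha subunit of eIF2 that GCN2 phosphorylates, fell by 0.44 (SE 0.043), Eif2b5 by 0.47 (SE 0.050) and Rraga, a GTPase that signals amino acids to mTORC1, by 0.87 (SE 0.051).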

How the data were processed

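RNA was counted in 6 libraries, 3 wild-type and 3 knockout, grouped by sample titles. The authors deposited raw read counts per Ensembl gene, not normalised, made with HISAT2 2.1.0 and HTSeq 0.9.1 on build mm10, per the submitters' processing notes, which also name DESeq2 1.18.1. The sources used here give no annotation release, read layout or strand setting. The 5 HTSeq tallies per file stayed out of library sizes, and 36.0 to 38.4% of reads were assigned to genes.

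Symbols, positions and exon lengths came from GENCODE M21 (GRCm38), matching 52403 of 52636 identifiers. Among 26 single-exon genes inside an exon of the other strand, the median read density was 0.755 of the host's, so counts were treated as unstranded. Promoter sequences are from RefSeq (GRCm38.p6), and matches in 1 promoter are not reported here.

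Genes were filtered with filterByExpr (minimum count 10), scaled by TMM and tested with edgeR 4.0.16 in R 4.3.3, knockout against wild type with no covariate, adjusted by Benjamini-Hochberg over 15816 genes at 0.05. SE is the log2 fold change divided by the root of F. CPM is counts per 1000000 after TMM, and intervals and spreads cover 3 libraries per group. The alternatives were DESeq2 1.42.0, limma-voom 3.58.1, other scalings and filters, a replicate block and each library left out.

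The members and lists were chosen with earlier results of these data known. Values in every library were given for the 8 largest rises and 8 largest falls with a mean of at least 5 CPM, for Lars2, Gars, Kars, Farsa and Farsb, and for the 3 partners. From each related list up to 6 genes with the smallest adjusted p were named, plus Atf4 and Myc. On simulated counts for 15816 genes in this layout, edgeR recovered 36% of 50 genes changed 1.25-fold, 90% at 1.5-fold and 100% at 2-fold. The simulation gave every gene the same dispersion and changed 200 genes, a far smaller share than was called in the data. The changed genes were not drawn from the lowest levels, so these rates do not carry over to members with low counts.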

Additional observations from a re-analysis of the deposited data

How the results depend on the processing

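Over 14 alternatives of scaling, filter, tool, block and libraries, the number of members higher in the knockout was 8 to 9 and the number lower 13 to 18. Of the 26 members called, 19 kept direction and call in every alternative, and 7 lost the call in at least 1. DESeq2 gave no adjusted p for Lars2, which was therefore not counted there. Lars2 was at 0.91 with limma-voom (adjusted p = 0.119) and at 1.05 with the replicate block. The sign turned for Lars2 without knockout replicate 1 (-0.17, and up to 2.36 without another library), for Wars2 without wild-type replicate 2 (0.047, and down to -0.17), for Aars with upper-quartile scaling (0.018), and for Kars with that scaling (0.0091) and without knockout replicate 1 (0.0089, and down to -0.058 without another library). Upper-quartile scaling moved the median log2 fold change to 0.046 for all tested genes, to -0.056 for cytosolic enzymes and to 0.025 for mitochondrial enzymes. With no filter the median of all genes was 0.025. With 1 library left out, the mitochondrial median ranged from -0.11 to 0.034 and the number of mitochondrial genes lower from 3 to 6. Leaving out members with exons on the other strand took the number of partners lower from 2 to 1, since fewer genes were counted. The cause of the other shifts was not tested. Same-numbered libraries did not deviate together (r across genes of 0.013, 0.0049 and -0.013 for numbers 1 to 3), so the numbers are not known to pair the samples, and the replicate block gave 9 members higher and 18 lower. Low counts limit Pars2, Fars2, Ears2, Wars2 and Nars2.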

Other observations

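Other genes around transfer RNA charging went both ways. Of 19 tested genes for accessory, editing and related enzymes, 6 were higher and 7 lower, with a median log2 fold change of -0.03. Sepsecs and Pstk, which complete the making of selenocysteine on a seryl transfer RNA, rose by 0.63 (SE 0.11) and 0.61 (SE 0.062), although 58.8% of the exon length of Pstk lies under exons of Ikzf5, which runs the opposite way. Sephs1, a paralogue of the selenophosphate synthetase, fell by 1.14 (SE 0.070). Osgep and Lage3, subunits of the KEOPS complex that modifies transfer RNAs, were at 0.76 (SE 0.098) and -0.57 (SE 0.12). Trnt1, which adds the CCA end to which amino acids are joined, fell by 0.31 (SE 0.070).

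All 9 listed cytosolic elongation and release factors passed the test, 5 higher and 4 lower. Their summed level was 15259 to 15432 CPM in wild type and 20818 to 21230 CPM in the knockout, most of it from Eef1a1, which rose by 0.58 (SE 0.010), and Eef2, which rose by 0.70 (SE 0.014). Eif5a fell by 0.92 (SE 0.029), and the release factor genes Etf1 and Gspt1 fell by 0.51 each. Of 9 mitochondrial factors, 4 were higher and 3 lower. Tufm and Gfm1, which carry out elongation in mitochondria, fell by 0.60 (SE 0.055) and 0.57 (SE 0.055), while Gfm2, a factor for ribosome recycling, rose by 0.51 (SE 0.049).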
